A study of Homo sapiens with 6 samples.

Results

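The genes described here encode the proteasome, its activators and the factors that assemble it. They were taken by name: protein-coding genes of GENCODE release 44 whose symbol starts with PSMA, PSMB, PSMC, PSMD, PSME, PSMF or PSMG followed by a digit, together with NFE2L1, DDI2, POMP and SEM1. This gave 54 of 62252 annotated genes, of which 19991 are protein-coding, and the 54 genes have 600 transcripts in the deposited files. The name rule uses no measured value, but it was set with earlier results of these data known. Of the 54, 52 had enough counts to be tested. The other two, PSMA8, the α subunit of testis proteasomes, and PSMB11, the β subunit of thymic proteasomes, were at 0 counts in every library. Both PSMC3IP, a factor of meiotic recombination, and PSME3IP1, which binds the nuclear activator PSME3, match the name rule without being subunits.

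The proteasome is the protease that degrades proteins tagged with ubiquitin. Its core, the 20S particle, stacks rings of α subunits (PSMA genes), which form the gate, around rings of β subunits (PSMB genes), some of which carry the cutting sites. The 19S cap binds ubiquitin chains, removes them and feeds the unfolded protein into the core with a ring of ATPases (PSMC genes), and other activators (PSME genes) open the gate without ATP or ubiquitin. In human cells the transcription factor NRF1, the product of NFE2L1, is cleaved by the protease DDI2 and raises the transcription of subunit genes together when proteasome activity is short.

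RNA came from K562 cells, a human erythroid leukemia cell line grown in suspension. Cells received 10 µM 21H7, a cell-permeable iron chelator, overnight (the Chelator group, 3 libraries), or an equal volume of DMSO, the solvent (the DMSO group, 3 libraries), and all 6 libraries came from this 1 line in the same complete medium. The comparison addresses how proteasome mRNAs differ when less iron is available. The series describes the libraries of a group as biological replicates, and polyadenylated RNA was sequenced in read pairs.

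The DMSO libraries held 78.6 M to 90.4 M estimated counts (M, 1e+06) and the Chelator libraries 85.4 M to 101 M. The 54 genes together took 0.794 to 0.809% of the counts in DMSO and 0.720 to 0.732% in Chelator. Of 8 markers of K562 cells, all 8 were expressed, 3 rose and 3 fell, from KLF1, an erythroid transcription factor (log2 fold change -0.72, DESeq2 adjusted p 4.59e-23), to TFRC, the transferrin receptor (2.89, DESeq2 adjusted p 3.17e-172), and the part of these shifts in the results was not tested. Of 8 markers of other cell types, MS4A1 (B cells) was at 0 and KRT5 (keratinocytes) at 0 or 1 count in every library, while EPCAM had the highest level of the list, 65.4 TPM (transcripts per 1e+06, a level scaled to transcript length) on average in DMSO and 47.9 TPM in Chelator. The summed level of that list was 72.2 to 79.0 TPM in DMSO and 54.2 to 61.0 TPM in Chelator, and its part in the results was not tested. The mean fragment length was 252 to 264 bases in DMSO and 200 to 218 bases in Chelator, and because no library of one group reached the other group's range, the treatment and the fragment length cannot be told apart in any value below. RNA from a bulk culture does not tell fewer cells from less RNA per cell.

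Most proteasome mRNAs were lower or close to their DMSO level in Chelator, by amounts below 2-fold. Of the 52 genes tested, 25 fell and 5 rose at a Benjamini-Hochberg adjusted p under 0.05 in DESeq2's Wald test, and 22 did not pass. Among all 24542 genes with an adjusted p, 18.3% fell and 19.5% rose. Abundant genes fell more often than all genes together, so the members were also read against genes of similar abundance. Of the 52, 50 averaged at least 1000 normalized counts and all 25 falls were among them, 25 of 50, whereas 38.2% of all 8942 genes with that mean fell and 24.8% rose. The median log2 fold change was -0.17 over the 52 genes, against 0.02 over all genes with an adjusted p, and -0.18 over the 50 abundant members, against -0.09 over all 8942 abundant genes. With a log2 fold change beyond 1 in either direction as a further condition, the call used by the study, 1 member was called, PSME3, where 10.8% of all genes (8.18% higher and 2.6% lower) and 4.91% of abundant genes were called. The values of the groups did not overlap for 26 members that were lower and 9 that were higher in Chelator, against 23.7% and 25.5% of all genes and 41.6% and 27.9% of abundant genes. Scaling each library by edgeR's TMM factors raised the median of all genes from 0.02 to 0.06 on the log2 scale and gave 8 members that rose, and centring on the mean log2 change of all genes lowered it to -0.09 and gave 4 members that rose and 32 that fell. Over protein-coding transcripts alone, 10 members rose, 26 fell and 3 were beyond a log2 fold change of 1.

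**Figure D1:**
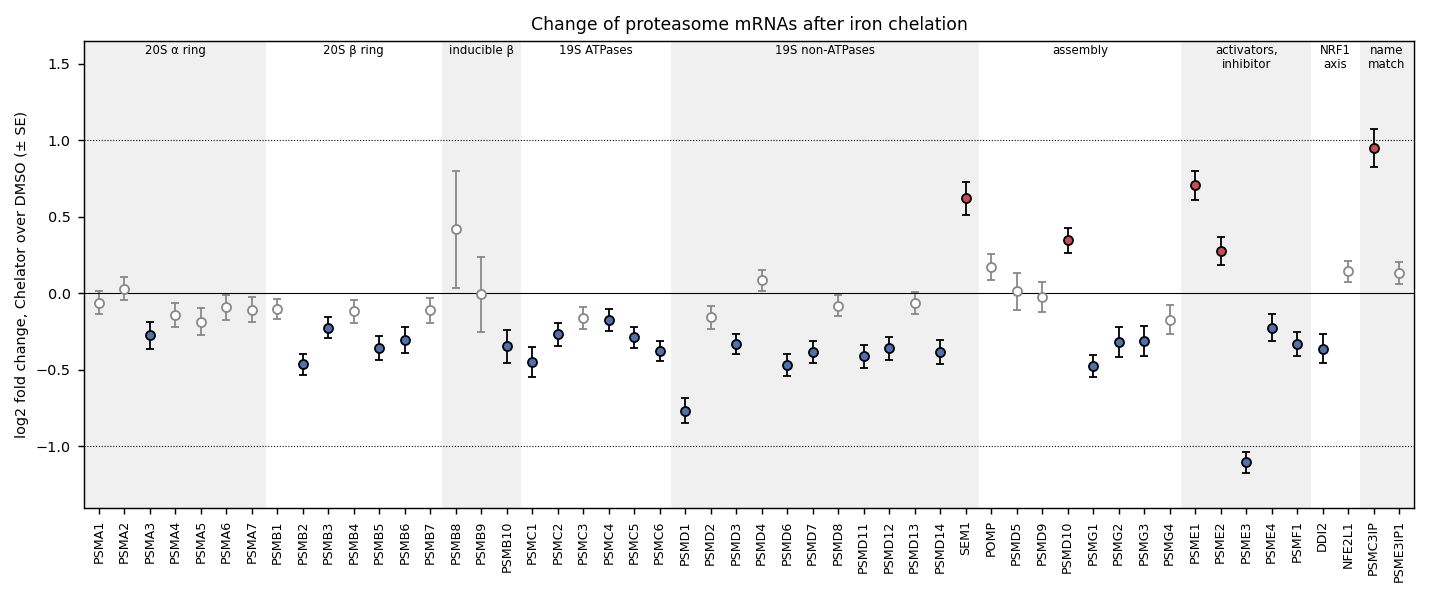
Log2 fold change (Chelator over DMSO) of each of the 52 tested genes, grouped by role along the horizontal axis. Points are DESeq2 estimates from 3 libraries per group and bars are their standard errors; blue marks a fall and red a rise at adjusted p under 0.05, open grey points did not pass, and dotted lines mark a log2 fold change of 1 and -1. The point of PSME3, at -1.10, is the lowest and the only one beyond either line, while PSMC3IP is the highest at 0.95.

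The activators of the 20S core gave both the largest fall and 2 of the 5 rises. PSME3 encodes the nuclear activator PA28γ, and PSME1 and PSME2 encode the α and β subunits of PA28, the interferon-inducible activator of the cytoplasm. The RefSeq promoters of these genes, the 250 bases before the annotated start on GRCh38.p14, are printed because the 3 related genes moved in opposite directions. In PSME1 (chr14:24135944-24136193, plus strand) and PSME2 (chr14:24146611-24146860, minus strand) the capitals mark TGACNNNGC, the core letters of the antioxidant response element that NRF1 and NRF2 recognise, starting 86 and 175 bases before the start. In PSME3 (chr17:42833147-42833396, plus strand) they mark the E-box CACGTG, 42 bases before the start.
PSME1: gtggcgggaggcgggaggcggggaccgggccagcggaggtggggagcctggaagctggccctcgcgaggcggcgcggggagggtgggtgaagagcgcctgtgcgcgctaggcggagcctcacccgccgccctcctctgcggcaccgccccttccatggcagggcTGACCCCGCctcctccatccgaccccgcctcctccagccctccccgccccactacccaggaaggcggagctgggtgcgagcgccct
PSME2: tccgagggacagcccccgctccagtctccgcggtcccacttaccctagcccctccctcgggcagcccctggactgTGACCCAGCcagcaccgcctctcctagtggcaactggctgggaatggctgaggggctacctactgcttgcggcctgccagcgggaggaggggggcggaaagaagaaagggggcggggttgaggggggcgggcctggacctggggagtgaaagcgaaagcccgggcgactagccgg
PSME3: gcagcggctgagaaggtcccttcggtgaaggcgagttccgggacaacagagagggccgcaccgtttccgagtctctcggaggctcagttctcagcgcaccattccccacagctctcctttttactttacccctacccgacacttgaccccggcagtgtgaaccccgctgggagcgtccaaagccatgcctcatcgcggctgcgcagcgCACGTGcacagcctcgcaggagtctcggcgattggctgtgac
No TGACNNNGC was found in the printed stretch of PSME3 and no CACGTG in those of PSME1 and PSME2. The promoter of PSME4, a further activator gene, also holds TGACNNNGC, 34 bases before the start, and its log2 fold change was -0.22. These matches are letters in a window, and factor binding was not measured here.

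The PSME3 mRNA (ENSG00000131467.12, chromosome 17, 42824385 to 42843760, GRCh38) had 32216, 30334 and 33010 normalized counts in DMSO and 15426, 14404 and 14609 in Chelator. The Chelator libraries lay far below the DMSO libraries and close to each other. The mean went from 31853 ± 1374 (SD, n = 3) to 14813 ± 540, a log2 fold change of -1.10 with a standard error of 0.068 and a DESeq2 adjusted p of 5.72e-58. PSME1 (ENSG00000092010.15, chromosome 14, 24136163 to 24138967) had 1478, 1295 and 1291 normalized counts in DMSO and 2190, 2279 and 2167 in Chelator. The groups were well apart, and the log2 fold change was 0.71 (SE 0.095, DESeq2 adjusted p 1.11e-12). PSME2 (ENSG00000100911.16, chromosome 14, 24143362 to 24147570), which lies next to PSME1, had 4277, 3530 and 4010 normalized counts in DMSO against 4678, 4622 and 5030 in Chelator. Its groups did not overlap either, but the gap was narrow, with a log2 change of 0.28 (SE 0.091, DESeq2 adjusted p 0.00747). Without Chelator replicate 3 the PSME2 log2 fold change was 0.24 and did not pass, at an adjusted p of 0.0646. Centring on the mean log2 change also took PSME2 below the threshold, with 0.17 and an adjusted p of 0.179. Each of these genes is overlapped on the opposite strand by an expressed gene, and whether the counting used strand is not given in the sources used here. PSME2 has 2 such partners, RNF31, with a log2 fold change of -0.40 (DESeq2 adjusted p 0.000154), and ENSG00000259529, a smaller one that moved the same way as PSME2 (0.51, DESeq2 adjusted p 0.00577). BECN1, across from PSME3, had 0.11 and EMC9, across from PSME1, had 0.07, and neither passed.

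As levels per length, PSME3 stood above PSME1 and PSME2 together in every DMSO library and below them in every Chelator library. The ratio of the PSME3 level to the summed PSME1 and PSME2 level, in TPM, was 2.15, 2.42 and 2.38 in DMSO and 0.872, 0.812 and 0.785 in Chelator. PA28 is built from both of its subunits, and the PSME1 to PSME2 ratio of TPM was 0.280 ± 0.018 (SD, n = 3) in DMSO and 0.376 ± 0.025 in Chelator.

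**Figure D2:**
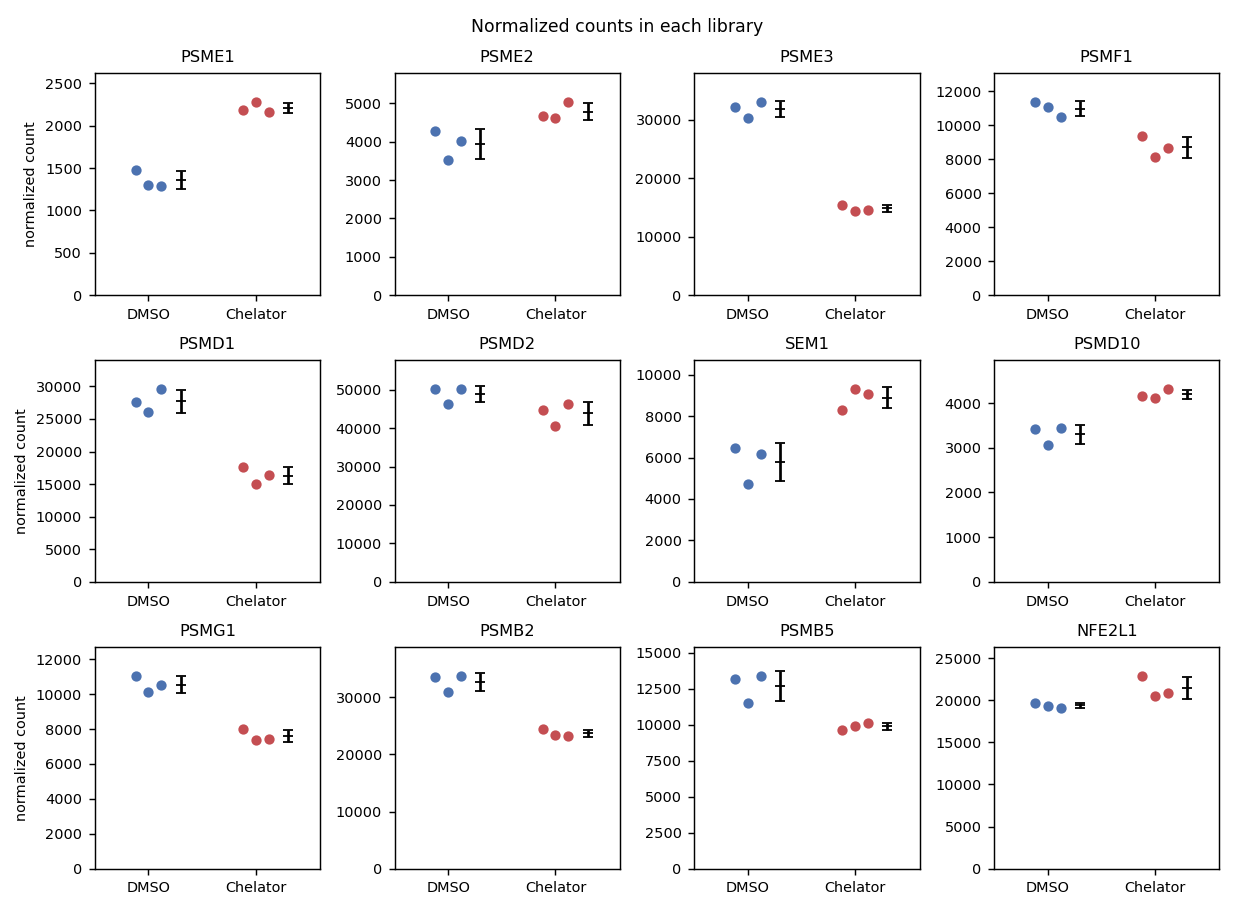
Normalized count of 12 members in each library (points), with the group mean and SD of 3 libraries as a bar beside them; every vertical axis starts at 0. The points of PSME3 lie between 30334 and 33010 in DMSO and between 14404 and 15426 in Chelator, and for PSME1, SEM1 and PSMD10 every Chelator point is above every DMSO point.

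The inhibitor of the core and the remaining activator were lower in Chelator. PSMF1, which encodes the inhibitor PI31, fell from 11364, 11054 and 10498 normalized counts in DMSO to 9364, 8109 and 8655 in Chelator, with no overlap and a log2 change of -0.33 (SE 0.078, DESeq2 adjusted p 9.81e-05). PSME4, which encodes the large activator PA200, had 23351, 26897 and 25603 normalized counts in DMSO and 23963, 20136 and 20829 in Chelator, and the groups overlapped. Its log2 fold change of -0.22 passed narrowly (SE 0.087, DESeq2 adjusted p 0.0294). The PSME4 call held in 8 of 16 alternative settings, was lost on leaving out DMSO replicate 2 (adjusted p 0.115), DMSO replicate 3 (0.106), Chelator replicate 2 (0.180) or Chelator replicate 3 (0.154), and its sign turned, to 0.017, once GC content and length trends had been removed.

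Of the 7 tested genes of the 20S α ring, 1 fell, PSMA3, and none rose. The shares of abundant genes were 38.2% lower and 24.8% higher, and those of all genes 18.3% and 19.5%. PSMA3 had 7356, 6237 and 7175 normalized counts in DMSO and 6042, 5775 and 5339 in Chelator (log2 fold change -0.28, SE 0.088, DESeq2 adjusted p 0.00641). The other 6 had log2 fold changes between -0.19 (PSMA5) and 0.03 (PSMA2), and the ring's median log2 fold change was -0.11. The groups overlapped for all 6. Every 31-base stretch of the main PSMA2 transcript also occurs in another expressed gene, an annotated readthrough, as do 81.1% of those of PSMA6 and 63.8% of those of PSMA1, so the counts of these 3 genes depend on how shared reads were divided.

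In the β ring, 4 of the 7 constitutive genes fell, PSMB2, PSMB3, PSMB5 and PSMB6, and none rose, with a median log2 fold change of -0.22. Among abundant genes 38.2% fell and 24.8% rose, and among all genes 18.3% and 19.5%. PSMB2, a subunit without a cutting site, had the largest fall of the ring. Its normalized counts were 33558, 30896 and 33720 in DMSO and 24388, 23454 and 23290 in Chelator, and the groups lay far apart relative to their spread (log2 fold change -0.46, SE 0.067, DESeq2 adjusted p 3.79e-11). The 3 cutting sites are carried by PSMB5 (chymotrypsin-like), PSMB6 (caspase-like) and PSMB7 (trypsin-like). PSMB5 went from 13182, 11496 and 13382 normalized counts to 9641, 9910 and 10094, a log2 change of -0.36 (SE 0.079, DESeq2 adjusted p 2.59e-05). PSMB6 went from 8133, 6968 and 7979 to 5893, 6262 and 6542 normalized counts, a log2 change of -0.30 (SE 0.085, DESeq2 adjusted p 0.00138). For both of these catalytic genes each Chelator library was below each DMSO library. PSMB7 overlapped between the groups, with 20729, 18069 and 21085 against 19339, 17482 and 18642 normalized counts and a log2 change of -0.11 (SE 0.081, DESeq2 adjusted p 0.307). Without DMSO replicate 2 its log2 fold change was -0.18 with an adjusted p of 0.0235. The call of PSMB6 did not pass without the length offset (adjusted p 0.0559).

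The inducible catalytic subunits, which replace the constitutive ones in immunoproteasomes, were scarce in these cells. PSMB8 had 0.534 to 1.40 TPM in DMSO and 1.21 to 1.45 TPM in Chelator, and PSMB9 had 1.95 to 2.30 TPM in DMSO and 2.01 to 2.23 TPM in Chelator. Neither passed: the log2 fold change of PSMB8 was 0.42 (SE 0.38, DESeq2 adjusted p 0.433) and that of PSMB9 was -0.01 (SE 0.24, adjusted p 0.988). PSMB8 rests on few counts, 35.0 to 108 per library, and without DMSO replicate 1 its log2 fold change was 0.90 with an adjusted p of 0.0398. PSMB10 was the most abundant of the 3, at 34.9 to 38.7 TPM in DMSO and 27.5 to 31.1 TPM in Chelator. Its normalized counts were 1646, 1325 and 1460 in DMSO and 1109, 1182 and 1191 in Chelator, a log2 change of -0.35 (SE 0.11, DESeq2 adjusted p 0.00566). The direction of PSMB10 depended on which transcripts were summed. Its raw counts, 1428, 1083 and 1094 in DMSO and 1326, 1631 and 1359 in Chelator, overlapped, and the mean effective length of its transcripts went from 449 to 587 bases. Over protein-coding transcripts alone the log2 fold change was 1.20 with an adjusted p of 7.92e-07, and without the length offset it was 0.027. A short retained-intron transcript, PSMB10-203, made up 79.9% ± 1.67 (SD, n = 3) of the TPM of the gene in DMSO and 60.7% ± 0.964 in Chelator, while the coding PSMB10-201 went from 9.80% ± 3.16 to 29.2% ± 1.98. This shift was not called in the transcript test (adjusted Simes p 0.324), and 77.9% of the 31-base stretches of the main transcript also occur in an overlapping readthrough gene, whose log2 fold change was -1.15. The summed TPM of the 3 inducible genes was 0.054 ± 0.0037 of that of the 3 constitutive catalytic genes in DMSO and 0.051 ± 0.0022 in Chelator. Most of the inducible sum was PSMB10, 36.9 of 39.9 TPM in DMSO and 29.7 of 33.1 TPM in Chelator. The ratio therefore counts mainly the retained-intron PSMB10-203, whose share fell while that of the coding PSMB10-201 rose. A ratio over coding transcripts alone was not computed.

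**Figure D3:**
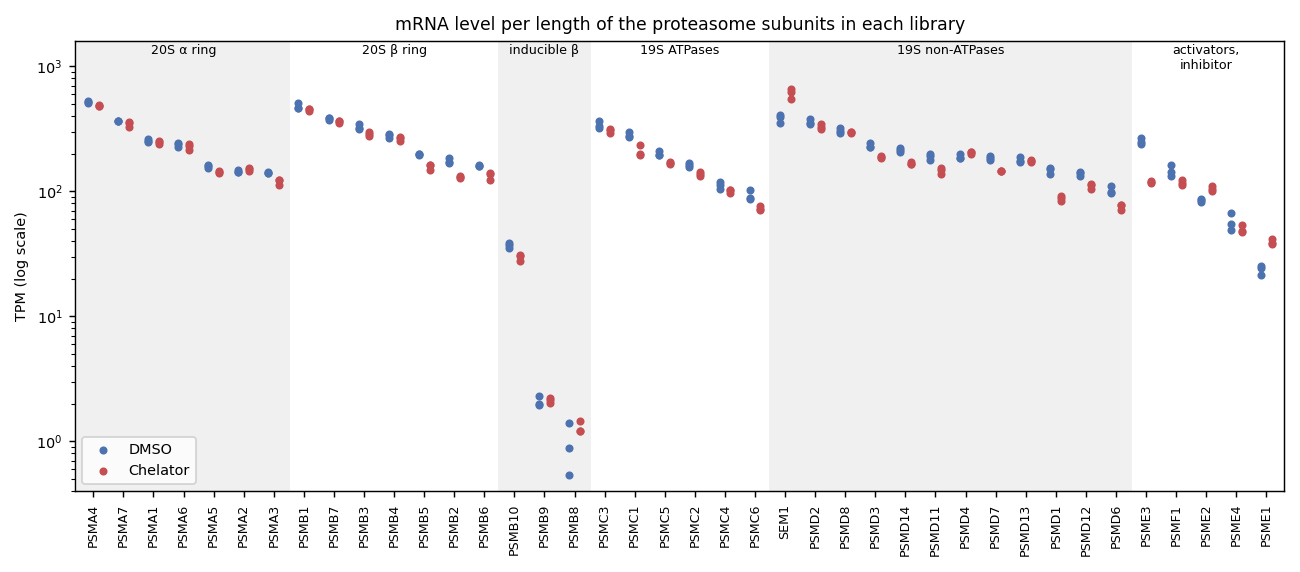
Level per length (TPM, logarithmic axis) of the subunits, the activators and the inhibitor in each library, ordered within a role by the DMSO mean; each point is 1 library, blue for DMSO and red for Chelator. PSMB8 and PSMB9 lie near 1 and 2 TPM, below every constitutive subunit, and SEM1 has the highest mean of the 19S genes in both groups, though not the highest value in DMSO replicate 2.

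The 19S cap held 12 of the 25 falls. Of its 18 genes, 12 fell and 1 rose, with a median log2 fold change of -0.31, whereas of the 14 tested constitutive genes of the 20S rings 5 fell and none rose, with a median of -0.13. Of abundant genes 38.2% fell and 24.8% rose, and of all genes 18.3% and 19.5%. The difference between the particles was not tested. Among the 6 ATPases, which unfold the substrate, 5 fell, and PSMC3 did not pass (log2 fold change -0.16, adjusted p 0.0655). All 6 had no overlap between the groups. PSMC1 had the largest fall of the ATPase ring, from 13676, 12584 and 13588 normalized counts in DMSO to 11200, 8760 and 9195 in Chelator (log2 fold change -0.45, SE 0.096, DESeq2 adjusted p 1.73e-05). The next ATPase was PSMC6, with a log2 fold change of -0.38, followed by PSMC5 with -0.29, PSMC2 with -0.27 and PSMC4 with -0.18. Of the 31-base stretches of the main PSMC1 transcript, 76.0% also occur in the pseudogene PSMC1P1, whose log2 fold change was 0.62. PSMC5 overlaps FTSJ3 on the opposite strand, which had a log2 fold change of -0.80.

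Among the 12 non-ATPase genes, 7 fell, 1 rose and 4 did not pass. PSMD1 encodes the large scaffold that receives ubiquitin and ubiquitin receptors, and it fell most (ENSG00000173692.14, chromosome 2, 231056845 to 231173116). Its normalized counts were 27543, 26087 and 29595 in DMSO and 17610, 14946 and 16357 in Chelator. The lowest DMSO library was well above the highest Chelator library, and the log2 fold change was -0.77 (SE 0.083, DESeq2 adjusted p 5.61e-19). PSMD2, the other large scaffold, had 50147, 46349 and 50036 normalized counts in DMSO and 44576, 40613 and 46268 in Chelator, with a log2 change of -0.16 (SE 0.074, DESeq2 adjusted p 0.0832). The ratio of the PSMD1 level to the PSMD2 level in TPM was 0.410 ± 0.016 (SD, n = 3) in DMSO and 0.269 ± 0.015 in Chelator. PSMD6, a lid subunit, fell from 8640, 8244 and 8699 to 6501, 6180 and 5822 normalized counts (log2 fold change -0.47, SE 0.073, DESeq2 adjusted p 1.77e-09). The other falls were those of the lid subunits PSMD11 (log2 fold change -0.41), PSMD7 (-0.38), PSMD12 (-0.36) and PSMD3 (-0.33), and of PSMD14 (-0.38), the deubiquitinase that removes the chain from the substrate. The lid subunits PSMD8 and PSMD13 did not pass, with log2 fold changes of -0.08 and -0.07, nor did the ubiquitin receptor PSMD4, with 0.08.

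SEM1 encodes the small acidic lid subunit DSS1, which also binds BRCA2, and it was the only 19S gene that rose. It had 6480, 4745 and 6149 normalized counts in DMSO and 8306, 9304 and 9075 in Chelator. The groups did not overlap, DMSO replicate 2 being the lowest library, and the log2 fold change was 0.62 (SE 0.11, DESeq2 adjusted p 1.43e-07). In TPM it went from 384 ± 27.5 (SD, n = 3) to 607 ± 52.6, the highest mean of the 19S cap in both groups, although in DMSO replicate 2 it was at 353 TPM, below PSMD2 (379 TPM) and PSMC3 (363 TPM). Its 2 main transcripts are short, 350 and 458 bases, and the fragment lengths of the libraries differed between the groups. They held 22.2% and 76.1% of the TPM of the gene in DMSO, so the setting that keeps transcripts of at least 500 bases alone, a choice made after seeing the data, leaves out nearly all of the gene and does not bear on its rise.

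The assembly factors split. PSMG1 and PSMG2 form the chaperone on which the α ring is built, PSMG3 and PSMG4 form a further one, and POMP guides the β subunits onto it. PSMG1 fell from 11043, 10094 and 10506 normalized counts in DMSO to 7975, 7384 and 7438 in Chelator (log2 fold change -0.47, SE 0.072, DESeq2 adjusted p 5.70e-10). Its partner PSMG2 fell from 4330, 4015 and 4197 to 3806, 3051 and 3184 normalized counts (log2 fold change -0.32, SE 0.098, DESeq2 adjusted p 0.00369). PSMG3 fell from 3305, 2751 and 2948 to 2233, 2500 and 2507 normalized counts (log2 fold change -0.31, SE 0.098, DESeq2 adjusted p 0.00458). In each of these 3 genes the groups did not overlap. PSMG4 did overlap, with 3966, 3552 and 4183 against 3182, 3582 and 3622 normalized counts and a log2 change of -0.17 (SE 0.093, DESeq2 adjusted p 0.140). PSMG4 passed in 3 of 16 alternative settings, without DMSO replicate 2 (-0.24, adjusted p 0.0240), centred on the mean log2 change (-0.28, adjusted p 0.0193) and once GC and length trends were taken out (-0.32, adjusted p 0.000188). PSMG4 lies across from TUBB2B, whose log2 fold change was 2.42. POMP had 10407, 8793 and 9544 normalized counts in DMSO and 10430, 10483 and 11500 in Chelator. Every Chelator library of POMP was above every DMSO library by a narrow margin, and it did not pass (log2 fold change 0.17, SE 0.084, DESeq2 adjusted p 0.0921). POMP passed in 5 of 16 alternative settings, among them without DMSO replicate 1 (0.23, adjusted p 0.0206) and once GC and length trends were taken out (0.36, adjusted p 1.73e-05), and its log2 fold changes ran from 0.07 to 0.36 over all 16.

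Of the 4 chaperones of the 19S base, PSMD10 rose, and PSMD9, PSMD5 and PAAF1 did not pass. For PAAF1, which is outside the name rule, the log2 change was 0.21 (SE 0.11, DESeq2 adjusted p 0.124). PSMD10, also known as gankyrin, had 3411, 3060 and 3432 normalized counts in DMSO and 4150, 4115 and 4314 in Chelator, with no overlap and a log2 change of 0.35 (SE 0.080, DESeq2 adjusted p 8.99e-05). PSMD9 had 3704, 3469 and 4198 against 3440, 3741 and 4010 normalized counts, interleaved between the groups (log2 fold change -0.02, SE 0.097, DESeq2 adjusted p 0.891). It passed in 1 of 16 alternative settings, with a log2 change of -0.26 (adjusted p 0.00564) once GC and length trends were taken out. PSMD5 had 9628, 8750 and 9192 normalized counts in DMSO and 7243, 9654 and 10921 in Chelator, so that its Chelator libraries lay on both sides of DMSO (log2 fold change 0.01, SE 0.12, DESeq2 adjusted p 0.955). The spread of PSMD5 came with a 219-base transcript, PSMD5-208, that held 0 counts in DMSO and in Chelator replicate 1 but 50.6 and 79.5 counts in Chelator replicates 2 and 3, where it was given 23.9% and 36.8% of the TPM of the gene. Without transcripts under 500 bases the PSMD5 log2 fold change was -0.38 (adjusted p 1.02e-07), and without the length offset it was -0.41 (adjusted p 7.58e-09).

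The NRF1 axis was mixed. NFE2L1 had 19699, 19358 and 19073 normalized counts in DMSO and 22886, 20454 and 20840 in Chelator, with no overlap, and did not pass (log2 fold change 0.14, SE 0.070, DESeq2 adjusted p 0.0951). It passed in 5 of 16 alternative settings, with log2 fold changes from 0.04 to 0.33 over all 16. DDI2 fell, from 17059, 21126 and 17150 normalized counts to 15328, 13802 and 13951, with no overlap and a log2 change of -0.36 (SE 0.095, DESeq2 adjusted p 0.000581). Its transcripts are long, with a mean effective length of 9163 bases in DMSO, and once GC content and length trends had been removed its log2 fold change was -0.05 (adjusted p 0.577).

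The match by name alone, PSMC3IP, had the largest log2 fold change among the rises. It had 1175, 916 and 1200 normalized counts in DMSO and 1899, 2194 and 2264 in Chelator, with no overlap and a log2 change of 0.95 (SE 0.12, DESeq2 adjusted p 3.19e-13). The value stood close to the study's fold threshold and passed it without DMSO replicate 1 (1.00), DMSO replicate 3 (1.02) or Chelator replicate 1 (1.03). Of its 31-base stretches, 54.1% occur in MLX, which lies across from it and had a log2 fold change of -0.25. PSME3IP1 had a log2 fold change of 0.13 (adjusted p 0.154).

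**Figure D4:**
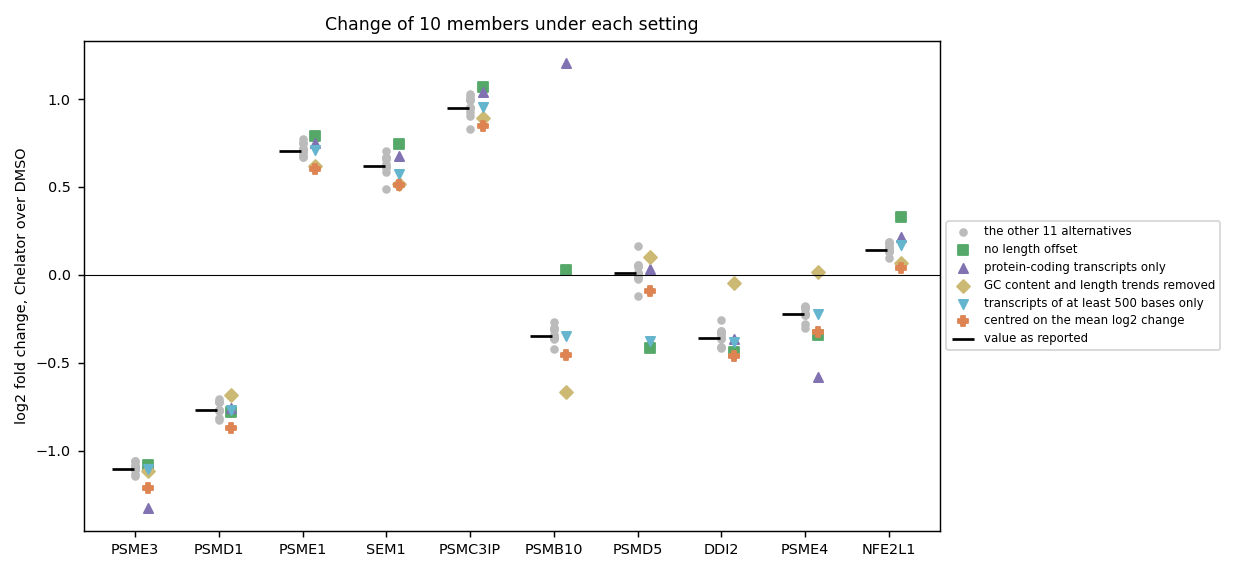
Log2 fold change (Chelator over DMSO) of 10 members as reported (black bars) and under each alternative setting (coloured symbols for 5 settings, grey points for the other 11). PSME3, PSMD1, PSME1, SEM1 and PSMC3IP keep their sign under all 16 alternatives, although for SEM1 the setting over transcripts of at least 500 bases leaves out its main transcripts, whereas PSMB10 spans -0.66 to 1.20 and PSMD5 spans -0.41 to 0.17.

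Genes of 1 particle were not at equal levels per length. Within the α ring, mean TPM in DMSO ran from 141 for PSMA3 to 520 for PSMA4, a ratio of 3.68, and in Chelator from 119 to 482, a ratio of 4.04. Among the constitutive β genes it ran from 161 for PSMB6 to 476 for PSMB1 in DMSO, and in Chelator the lowest were PSMB2 (130 ± 2.30 TPM) and PSMB6 (133 ± 9.63 TPM), whose order lay within the spread. Near the bottom of the α ring, PSMA3 (141 ± 1.12 TPM) and PSMA2 (144 ± 3.33 TPM) were within their spread in DMSO, and in Chelator they were at 119 ± 6.82 and 150 ± 4.97 TPM. PSMA2 stood above PSMA3 in every library of both groups. The ATPases ran from PSMC6 at 92.7 to PSMC3 at 337 TPM in DMSO. The mean TPM per 19S gene was 0.777 ± 0.011 (SD, n = 3) of the mean per gene of the 20S rings in DMSO and 0.784 ± 0.0070 in Chelator, a difference below the spread of the libraries. That likeness rested on SEM1. Without it, a choice made after seeing the data, the ratio was 0.728, 0.762 and 0.730 in DMSO and 0.700, 0.670 and 0.692 in Chelator, with no overlap. The 19S sum without SEM1 was lower by 14.8% in Chelator (3426 ± 164 against 2917 ± 38.5 TPM), and the 20S sum by 8.26%. Summed over all 54 genes, the level was 8955, 9518 and 9042 TPM in DMSO and 8276, 8490 and 8543 TPM in Chelator. The groups of this sum did not overlap, and the Chelator mean was lower by 8.02%, given as the authors' TPM with its own scaling. The sum over the 6 ATPases went from 1185 ± 65.2 to 995 ± 22.6 TPM, whereas that over the 7 α genes went from 1816 ± 20.1 to 1715 ± 31.7 TPM.

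Transcript usage, the share of a gene's TPM held by each of its transcripts, was tested for 50 members and changed in 8: PSMD2, PSMG2, PSMC2, PSMD11, PSMC1, SEM1, PSME4 and PSMD9. The call required an adjusted Simes p under 0.05 in edgeR's diffSpliceDGE and a shift above 5 percentage points, and 9.22% of the 11938 genes tested were called. In PSME4, the coding PSME4-202 held 72.4%, 74.5% and 68.1% of the TPM in DMSO and 56.6%, 51.8% and 53.0% in Chelator. A transcript annotated for nonsense-mediated decay, PSME4-201, went from 22.3% ± 3.74 (SD, n = 3) to 34.4% ± 1.81. The groups did not overlap for either transcript, and the adjusted Simes p was 0.0116. In SEM1 the 350-base SEM1-204 went from 22.2% ± 3.59 (SD, n = 3) to 37.7% ± 3.72 and the 458-base SEM1-201 from 76.1% ± 3.40 to 60.5% ± 3.80 (adjusted Simes p 0.00235). Both are annotated as coding.

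In PSMD9, the nonsense-mediated decay transcript PSMD9-206 held 0%, 2.59% and 5.68% in DMSO and 10.5%, 15.9% and 14.9% in Chelator (adjusted Simes p 0.0400), while the gene's total did not pass. The full-length coding PSMD11-201 fell from 21.9%, 21.2% and 18.8% of the TPM of PSMD11 to 11.4%, 10.7% and 8.24% (adjusted Simes p 2.64e-05). In PSMC1, the retained-intron transcript PSMC1-204 held 1.03%, 1.24% and 1.44% in DMSO against 4.03%, 8.32% and 14.2% in Chelator (adjusted Simes p 0.00233), and another retained-intron transcript, PSMC1-205, was lower by 9.84 points (from 68.5% ± 1.36 to 58.7% ± 5.27). The 3 Chelator libraries differed widely among themselves in this gene. Across the 117 retained-intron transcripts of members tested, 91 had a higher mean share in Chelator and 26 a lower one, against 100 and 96 of the 196 coding transcripts and 31 and 13 of the 44 nonsense-mediated decay transcripts. Most of these shifts were small, with a median of 0.26 points for the retained-intron transcripts. Beyond 5 points, 4 retained-intron transcripts were higher and 2 lower, while 10 coding transcripts were higher and 25 lower. The shares of 1 gene sum to a fixed total, so these counts are a description. They were not set against the transcripts of all genes, so whether they are particular to these members was not tested. Transcripts under 700 bases were higher in 68 and lower in 40 of 108 cases, and beyond 5 points in 9 and 7. Those of at least 700 bases were higher in 171 and lower in 107 of 278, but beyond 5 points in 9 and 20. The part of fragment length in these shifts was not tested. Without Chelator replicate 3, 4 members were called.

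**Figure D5:**
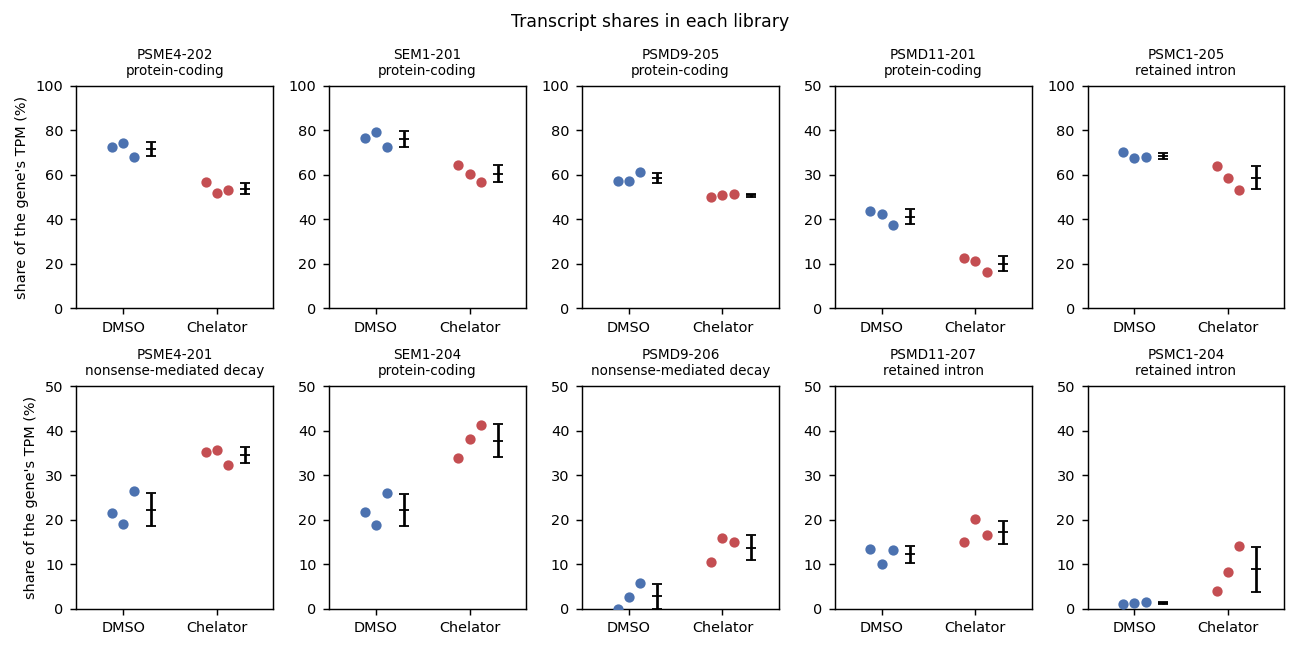
Share of the gene's TPM (percent) held by 2 transcripts of each of 5 called genes in every library, with the group mean and SD of 3 libraries as a bar. Coding transcripts such as PSME4-202 and PSMD11-201 sit lower in Chelator, and PSME4-201, SEM1-204, PSMD9-206 and PSMC1-204 sit higher in Chelator with no overlap between groups.

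Promoters of 48 of the 54 genes were found in the RefSeq table, 62 in all with alternative starts, each running from 250 bases before to 50 bases after the start. TGACNNNGC occurred on either strand in 25.8% of the 62, against 13.3% of all 35116 promoters and 13.8% of the 21599 of protein-coding genes, in 16 genes that include PSME1, PSME2, SEM1, PSMD1, PSMD12, PSMG1 and PSME4. In SEM1 the match lies at an internal start, chr7:96503524-96503773, far from the first exon of its 2 main transcripts. By direction the letters were in 3 of 5 genes that rose, 9 of 23 that fell and 4 of 18 that did not pass. CCGGAAG, the letters of an ETS site, occurred in 30.6% against 10.3% of all promoters and 12.9% of the protein-coding ones. GGGCGG, the GC box, was in 67.7% against 45.0% of all and 56.8% of the protein-coding ones. CCAAT was in 41.9% against 34.6% and 34.9%. The E-box CACGTG was in 8.06% of member promoters against 7.26% of all and 8.34% of the protein-coding ones. ACGTG, the hypoxia response core that CACGTG contains, was in 21.0% against 21.4% and 23.1%. The palindrome bound by BANP was in none of the 62, in 0.424% of all and in 0.583% of the protein-coding ones. Promoters of 1 gene can overlap, and these shares are counts of letters with no test.

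Genes that work with the proteasome moved in both directions. The shares to read these lists against are 18.3% lower and 19.5% higher among all genes, and 38.2% lower and 24.8% higher among abundant genes. Of 20 proteasome-associated genes, 11 (55%) fell and 3 (15%) rose, with a median log2 fold change of -0.18. The largest falls were those of UBQLN4, a shuttle that carries ubiquitinated proteins (log2 fold change -0.64, adjusted p 1.88e-18), and of UBE3A, a proteasome-bound ubiquitin ligase (-0.54, adjusted p 1.36e-06). The largest rises were those of ZFAND2A, induced by proteotoxic stress (0.63, adjusted p 7.28e-07), and of AKIRIN2, which carries proteasomes into the nucleus (0.40, adjusted p 1.40e-06). Among 16 factors that process or partner NRF1, 4 rose and 4 fell, 25% each, with a median of 0.07. MAFF, a small MAF partner, rose most and was the only gene of that list beyond a log2 fold change of 1, from 652, 591 and 610 normalized counts in DMSO to 2000, 2002 and 2081 in Chelator (log2 fold change 1.71, SE 0.098, DESeq2 adjusted p 2.19e-66). SYVN1, the ubiquitin ligase that targets NRF1 at the endoplasmic reticulum, also rose (0.59). BTRC, which targets nuclear NRF1, and the related factor NFE2L3 fell (-0.37 and -0.31). Of the other small MAF genes in the list, MAFG did not pass (0.08, DESeq2 adjusted p 0.377) and MAFK fell (-0.27, DESeq2 adjusted p 0.00175).

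Of 6 ubiquitin and ubiquitin-activating genes, 3 rose and 1 fell, too few to read against the 19.5% and 18.3% of all genes. The polyubiquitin gene UBB rose (log2 fold change 0.38, adjusted p 1.81e-05), and the activating enzyme UBA6 fell (-0.61, adjusted p 1.13e-06). Of 9 partners in antigen presentation, which uses peptides cut by the proteasome, 4 (44.4%) rose and 2 (22.2%) fell, against 19.5% and 18.3% of all genes and 24.8% and 38.2% of abundant ones. IRF1, a transcription factor of the interferon response, had a log2 fold change of 0.69 (adjusted p 0.00339) with overlapping groups, and TAPBP, the tapasin of peptide loading, 0.35 (adjusted p 7.76e-06). TAP2, a subunit of the peptide transporter, fell by 0.38 on the log2 scale (adjusted p 8.19e-07).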

How the data were processed

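Polyadenylated RNA of K562 cells was measured in 6 libraries, 3 of DMSO and 3 of Chelator, grouped by the sample labels, with 78.6 M to 101 M counts each; p-values measure the spread between 3 biological replicates per group. The authors quantified reads with salmon 1.10.2 and deposited, per transcript, estimated counts (86.9 to 88.0% of those above 0 not whole), TPM scaled by the authors to a fixed sum, and lengths. Annotation release, library strand and bias options are not given in the sources used here.

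Identifiers were looked up in GENCODE release 44 (GRCh38), which left 433 of 252045 unmatched (0.139 to 0.150% of counts). Counts were summed per gene, rounded and tested with DESeq2 1.42.0 (Wald test, median-ratio size factors, average transcript length as offset, total above 10, Benjamini-Hochberg over all genes). Normalized counts are counts divided by size factor and length offset. Calls are given at adjusted p under 0.05 and, after the study, with an absolute log2 fold change above 1. Transcript usage was tested with edgeR 4.0.16 (at least 10 counts in at least 3 libraries). Both steps were tested on simulated data with known changes. In the simulation each gene kept 1 length in all libraries, and transcript counts were drawn directly. It therefore does not bear on the length offset, the division of reads among transcripts or the difference in fragment length. Sequence shared with other expressed genes was counted in stretches of 31 bases of each gene's main transcript. This is the transcript with the highest mean TPM, which need not hold the most counts.

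Full statistics were given for up to 6 members with the largest rises and 6 with the largest falls (adjusted p under 0.05, mean normalized count of at least 100), the catalytic subunits and their inducible counterparts, the regulators and assembly factors, and up to 5 members called for usage; of every other list the 2 largest rises and 2 largest falls, some of which are not reported here. The members and the lists (proteasome-associated proteins, NRF1 factors, ubiquitin genes, antigen presentation partners, cell type markers) were chosen with earlier results of these data known. Alternatives comprised other scalings and tests, filters, transcript classes, trend removal, a replicate block and leaving out each library. Promoter sequences are from RefSeq.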

Additional observations from a re-analysis of the deposited data

How the results depend on the processing

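Over 28 members with full statistics and 16 alternatives, 399 of 448 values kept their direction and side of the threshold, 16 passed newly, 11 no longer passed and 22 changed sign. For 15 members, PSME3, PSME1, SEM1, PSMC3IP, PSMD1, PSMD6, PSMD10, PSMD11, PSMC1, PSMG1, PSMG2, PSMG3, PSMB2, PSMB5 and PSMF1, they held under all 16, but for SEM1 the setting over transcripts of at least 500 bases left out both main transcripts and does not bear on the gene. Of the counts, 5 members rose as reported, 8 with TMM factors, with edgeR's quasi-likelihood test or after removing GC content and length trends, 10 over protein-coding transcripts alone, and 4 to 7 on leaving out 1 library. The members with a log2 change beyond 1 numbered 2 without the length offset, 3 over protein-coding transcripts alone (PSME3, PSMC3IP and PSMB10), and 1 to 2 on leaving out 1 library. The falls numbered 22 to 32 on leaving out 1 library, highest without DMSO replicate 2. Usage was called in 4 members and 728 genes with a share change above 10 points and in 26 members and 3184 genes with limma, and on leaving out 1 library in 4 to 10 members and 541 to 1063 genes, lowest without Chelator replicate 3; without Chelator replicate 2 it was 596 genes. The cause was not tested.

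The log2 fold change of PSMB9 changed sign with TMM factors (0.039), the quasi-likelihood test (0.038), no length offset (0.11), protein-coding transcripts alone (0.024) and the replicate block (2.80e-05), and ran from -0.11 to 0.10 on leaving out 1 library, turning without DMSO replicate 3 (0.10), Chelator replicate 2 (0.013) or Chelator replicate 3 (0.033). PSMB10 changed sign without the offset (0.027) and over protein-coding transcripts (1.20), and PSME4 with GC content and length trends removed (0.017). PSMD5 changed sign without the offset (-0.41), after centring (-0.092), with the block (-0.0063), over transcripts of at least 500 bases (-0.38), and without DMSO replicate 2 (-0.025), Chelator replicate 2 (-0.017) or Chelator replicate 3 (-0.12), in a range of -0.12 to 0.17 over the libraries left out. PSMD9 changed sign with TMM factors (0.022), the quasi-likelihood test (0.022), and without DMSO replicate 3 (0.054) or Chelator replicate 1 (0.036), in a range of -0.086 to 0.054 over the libraries left out. Its fall passed once GC and length trends were taken out (-0.26, adjusted p 0.00564).

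Same-numbered libraries of the 2 groups correlated in their deviations at -0.0036, 0.125 and 0.094 for replicates 1, 2 and 3. Libraries with different numbers correlated at -0.124 to 0.046. The values of replicates 2 and 3 lay above that range, and that of replicate 1 lay within it. Whether the replicate numbers pair the libraries was not tested. A fit with the replicate block gave 5 rises, 23 falls and 1 call beyond a log2 change of 1, and the PSME4 call was lost (adjusted p 0.0581). Centring on the mean log2 change moved the split of all genes from 4774 higher and 4486 lower to 3695 and 5489. Leaving out SEM1, chosen after seeing the data, moved the Chelator minus DMSO difference of the 19S over 20S level from 0.0067 to -0.053. Few counts limit PSMB8 and PSMB9 at this depth.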

Other observations

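Several members had large shifts of a transcript's share that did not pass the adjusted Simes threshold of edgeR's diffSpliceDGE; they were picked after their values were seen. In NFE2L1, the short coding transcript NFE2L1-205 went from 45.4% ± 2.67 (SD, n = 3) of the TPM in DMSO to 27.7% ± 5.21 in Chelator (adjusted Simes p 0.0604), and the 4729-base NFE2L1-202 went from 4.15% ± 0.139 to 8.97% ± 0.810. The groups did not overlap for either. In PSME3, PSME3-209 went from 17.1% ± 1.51 to 4.07% ± 4.15 (adjusted Simes p 0.0749), with 0 counts in Chelator replicate 3, and the retained-intron PSME3-212 from 29.7% ± 0.910 to 39.9% ± 2.88. The 484-base coding PSMA6-216 went from 17.6% ± 3.76 to 34.8% ± 8.40 (adjusted Simes p 0.0998). In POMP, POMP-211 held 25.4%, 26.9% and 14.2% in DMSO and 16.7%, 1.06% and 0.656% in Chelator (adjusted Simes p 0.212), so that Chelator replicate 1 lay within the range of DMSO.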
